A study of Homo sapiens with 2 samples.

Results

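The genes described here are 57 components of the WNT signalling pathway, measured by strand-specific RNA sequencing in liver progenitors. The progenitors were made from CyT49, an established line of human embryonic stem cells. The 57 genes were chosen by name as WNT ligands, receptors, inhibitors and effectors, and each matched 1 of the 57158 Ensembl gene identifiers in the deposited table. The cells had reached definitive endoderm, the layer that gives rise to gut, liver and pancreas, at day 2. They then spent 6 days in suspension in RPMI medium with 50 ng/ml BMP4, 10 ng/ml FGF2 and 0.2% FBS before collection at day 8. Both libraries of the series, titled as replicates, belong to this group, and no untreated, earlier or mature liver sample was analysed here. All levels are thus those of 1 group, and no response to a treatment was measured.

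WNT ligands are secreted lipid-modified proteins that bind Frizzled receptors. With an LRP5 or LRP6 co-receptor they stop the destruction complex of AXIN, APC and GSK3B from degrading beta-catenin, which then acts with TCF/LEF factors on target genes. Other WNT signals run without beta-catenin, among them planar cell polarity. In vertebrate embryos WNT signalling is held low in the anterior endoderm that forms the foregut and later promotes liver growth, and in the adult liver WNT ligands from the central vein maintain pericentral hepatocyte genes.

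Levels are in RPKM, which divides reads by the length of the gene and the depth of the library, so levels of different genes can be set side by side. Every value under 0.5 is listed as 0.1 in the table, and 0.1 is called the floor below. Detected here means that both libraries reached 1 RPKM. Depth, read from the spacing of the values of genes with a single exon, was 25182303 reads for library 1 and 25263718 for library 2. Over 908 such genes the libraries differed by 1.06 times the variance that counting alone gives, so they were counted as 1 sample, and the spread between them is read as technical. The labels do not say whether they came from separate cultures. Markers of the labelled cell type were looked up. Their lists were chosen with earlier results of these data known, so they are not an independent check of the label. All 15 hepatoblast markers were detected, against 59.8% of protein-coding genes. The highest were APOA1 at 2188 RPKM, FGB at 868 and APOA2 at 812 RPKM. The lowest was ALB at 6.68 RPKM (chosen after its value was seen), near the median of 6.60 RPKM of detected protein-coding genes. All 10 mature hepatocyte markers, all 9 pluripotency markers and all 4 primitive streak markers were at the floor, against 33.8% of protein-coding genes.

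Of the 57 WNT genes, 32 (56.1%) were detected, close to the 59.8% of 19344 protein-coding genes. Another 23 were at the floor in both libraries (40.4%, against 33.8% of protein-coding genes), and NOTUM and LGR6 lay between the floor and 1 RPKM. Their median was 1.83 RPKM, against 2.42 RPKM for protein-coding genes; without genes at the floor the order turned round, with 7.76 RPKM against 5.87. The roles differed in these counts. Ligands were detected in 3 of 19 cases, whereas 29 of the 38 other members were (76.3%). Reaching 10 RPKM in both libraries were 14 members (24.6%, against 20.2% of protein-coding genes), none of them a ligand. Only CTNNB1 and FZD7 of the 57 reached 50 RPKM, a level that 3.08% of protein-coding genes reached.

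**Figure D1:**
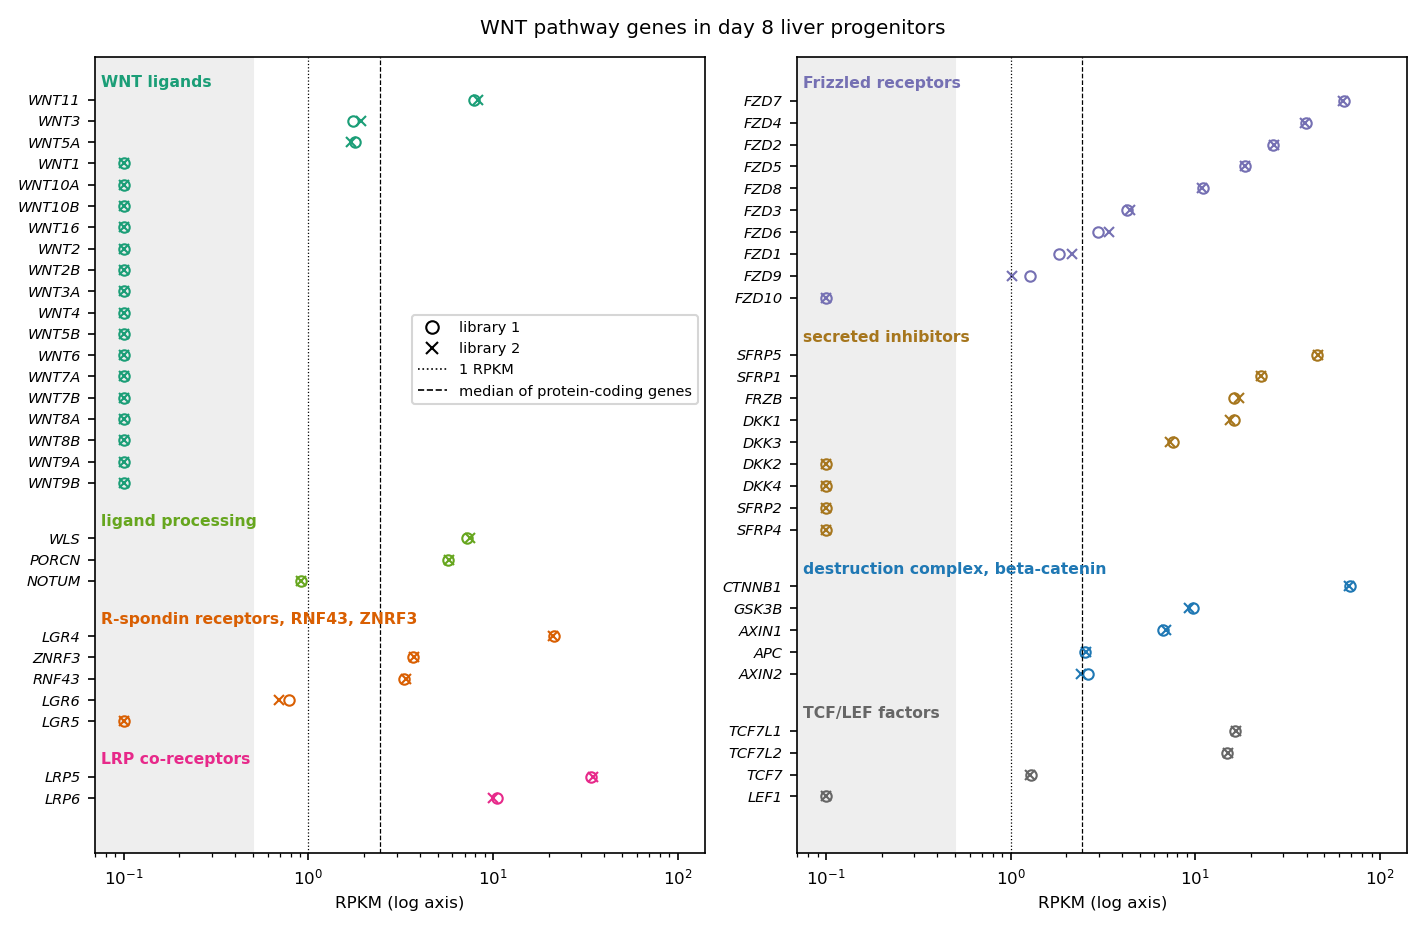
RPKM of the 57 WNT pathway genes in library 1 (circles) and library 2 (crosses) on a log axis, by role; the grey area is under 0.5 RPKM, where every value is listed as 0.1. The ligands sit at the floor except for WNT11, WNT3 and WNT5A, while 9 of 10 Frizzled genes lie at 1 RPKM or above. Of protein-coding genes 59.8% reached 1 RPKM in both libraries.

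Among the ligands, WNT11 was the most abundant, with 7.86 RPKM in library 1 against 8.30 in library 2. This ligand signals largely without beta-catenin, and its gene (ENSG00000085741.8) lies on chromosome 11 from 75897369 to 75921780 of GRCh37. WNT3, a beta-catenin-activating ligand needed for gastrulation in mice, had 1.75 and 1.92 RPKM in libraries 1 and 2. WNT5A, the best known ligand of beta-catenin-independent signalling, had 1.79 RPKM in library 1 and 1.70 in library 2. WNT3 and WNT5A changed places between the libraries, so their order is within technical error, and WNT11 stood 4.41 times above WNT3 and 4.63 times above WNT5A. WNT11 exceeded 74.8% of protein-coding genes, while WNT3 and WNT5A lay just under the protein-coding median.

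The other 16 ligands were at the floor in both libraries. They include WNT1, WNT3A, WNT8A, WNT10A and WNT10B, which act through beta-catenin, and WNT2 and WNT9B, the ligands of the central vein endothelium in mice. WNT2B was also at the floor; its zebrafish counterpart in the lateral mesoderm is needed for liver specification. WNT4, WNT5B, WNT6, WNT7A, WNT7B, WNT8B, WNT9A and WNT16 complete this set. A floor value is not an absence of transcripts, since 0.5 RPKM stood for 21.6 reads (WNT6) to 156 reads (WNT2B) in library 1, by the exon lengths of these 16 genes. In bulk RNA, few cells with much of a transcript and many cells with little cannot be told apart. In the human genome several WNT genes lie in pairs. WNT3 and WNT9B are divergent neighbours separated by 46 bp, with WNT3 detected and WNT9B at the floor. In the other 3 pairs within 200 kb (WNT1 with WNT10B, WNT3A with WNT9A, WNT6 with WNT10A) both genes were at the floor.

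Markers of cells other than hepatoblasts were measured because bulk levels can include such cells. The background for the counts below is 59.8% of protein-coding genes detected and 33.8% at the floor. Of 10 endothelial markers 2 were detected, ESAM at 5.75 and KDR at 1.61 RPKM, and CDH5, TEK, TIE1, VWF, ERG, STAB2, LYVE1 and EMCN were at the floor. Of 12 mesenchyme and stellate markers 5 were detected, led by VIM at 95.1, PDGFRA at 18.2 and COL1A1 at 8.29 RPKM, with LUM at 3.27 and PDGFRB at 2.14 RPKM (both chosen after their values were seen). LHX2, WT1, TCF21, DES, COL3A1 and NGFR were at the floor, and ACTA2, also chosen after its values were seen, was above it in library 2 only. The summed level of the mesenchyme list was 127 RPKM in library 1 and 129 in library 2, and that of the endothelial list 7.92 and 8.40. Of 8 blood and macrophage markers only CD68 was detected, at 3.41 RPKM, of 7 intestinal markers only CDX2, at 2.12, and of 5 pancreatic markers only PDX1, at 8.44 RPKM, with INS at 0.562 and 1.27 RPKM in libraries 1 and 2. No neural marker of 6 was. The part of such cells in the level of any WNT gene was not tested.

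Genes that process ligands were present beside the few ligands. WLS, which carries WNT proteins to the cell surface, had 7.25 RPKM in library 1 and 7.46 in library 2. PORCN, the acyltransferase that adds the lipid, had 5.67 and 5.79 RPKM in libraries 1 and 2. Both exceeded the protein-coding median. NOTUM, the secreted enzyme that removes the lipid again, had 0.914 and 0.917 RPKM in the same order, just under the detection limit in both.

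Frizzled receptors were the role with the largest summed level, and 9 of 10 were detected (90%, against 59.8% of protein-coding genes). The sum depends on the number of genes in a role. The Frizzled median of 7.65 RPKM lay below those of the co-receptors (22.3) and TCF/LEF factors (8.11 RPKM) and above those of the rest. FZD7 led with 63.4 RPKM in library 1 and 63.3 in library 2. This receptor is known from human pluripotent cells and endoderm. Its single exon lies on chromosome 2 from 202898578 to 202903164 of GRCh37 (ENSG00000155760.1), and the values stood for about 7327 and 7334 reads. FZD7 exceeded 97.7% of protein-coding genes. FZD4, which also serves as the receptor of norrin, followed with 39.7 RPKM in library 1 and 39.4 in library 2. FZD2 had 26.3 RPKM in library 1 and 26.5 in library 2. FZD5 had 18.7 and 18.5 RPKM, and its closest relative FZD8 11.0 and 10.9 RPKM, in libraries 1 and 2. These 5 receptors stood apart from each other by 1.42 to 1.70 times from one to the next, with no overlap between libraries, and together held 93.6% of the summed Frizzled level.

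The remaining Frizzled genes were lower. FZD3, known for axon guidance and planar polarity, had 4.26 RPKM in library 1 and 4.43 in library 2. FZD6, its close relative, had 2.98 and 3.43 RPKM, and FZD1 1.83 and 2.16 RPKM, in the same libraries. The order FZD3, FZD6, FZD1, FZD9 was the same in both libraries. FZD9 had 1.27 RPKM in library 1 and 1.01 in library 2, the widest difference between libraries of any detected member (log2 ratio 0.33). Those values stood for 75 and 60 reads, and the 95% exact Clopper-Pearson interval of their ratio per depth, 0.881 to 1.79, includes equality; the interval covers counting error only. The 11 members between 1 and 5 RPKM, FZD9 among them, had a median absolute log2 ratio between libraries of 0.0757, and protein-coding genes of that level had 0.0755. The 95th percentile of those protein-coding genes was 0.288, which FZD9 exceeded with 0.327. After FZD9 the widest in that range were FZD1 (log2 ratio -0.24) and FZD6 (-0.20). FZD10 was at the floor. Exons of FZD4 overlap 1399 bp of PRSS23 on the opposite strand, which stood at 6.22 RPKM, and whether the authors counted by strand is not given in the sources used here.

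Both LRP co-receptors were detected. LRP5 had 34.0 RPKM in library 1 and 34.8 in library 2, and LRP6 10.5 and 9.96 RPKM in libraries 1 and 2. The level of LRP5 was 3.36 times that of LRP6, far beyond the spread between libraries. The pseudogene LRP5L, a partial copy of LRP5, stood at 2.71 RPKM and could have shared reads with it.

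R-spondins strengthen WNT signals by binding LGR receptors and removing the ubiquitin ligases RNF43 and ZNRF3, which otherwise clear Frizzled proteins from the membrane. LGR4 was the leading receptor of this axis, with 21.3 RPKM in library 1 and 21.1 in library 2. LGR5, a marker of WNT-dependent stem cells in several adult epithelia, was at the floor, and LGR6 had 0.788 and 0.690 RPKM in libraries 1 and 2. ZNRF3 had 3.66 RPKM in library 1 and 3.72 in library 2. RNF43 had 3.28 and 3.37 RPKM in the same order, slightly below ZNRF3 in each library. RNF43 shares 4326 bp of exons with another annotated gene on the same strand that has no value here. Of the 4 R-spondin ligands themselves, RSPO3 had 11.7 RPKM in library 1 and 11.3 in library 2, and RSPO1, RSPO2 and RSPO4 were at the floor. RSPO3 thus exceeded every WNT ligand in both libraries.

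Secreted inhibitors were more abundant than ligands. SFRP5, a secreted Frizzled-related protein of the foregut endoderm in frog embryos, led with 45.8 RPKM in library 1 and 46.0 in library 2. Its gene (ENSG00000120057.4) lies on chromosome 10 from 99526508 to 99531756 of GRCh37, and it exceeded 96.5% of protein-coding genes. SFRP1 had 22.7 RPKM in library 1 and 22.6 in library 2. FRZB, also called SFRP3, had 16.2 and 17.3 RPKM in libraries 1 and 2. These 3 proteins, which bind WNT ligands through a Frizzled-like domain, held 78.3% of the summed level of the 9 inhibitors, while their relatives SFRP2 and SFRP4 were at the floor.

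DKK1, which blocks LRP5 and LRP6, had 16.3 RPKM in library 1 and 15.5 in library 2. FRZB and DKK1 changed places between the libraries, so their order is within technical error. DKK3, a divergent family member, had 7.55 and 7.32 RPKM in libraries 1 and 2. Its exons overlap 5681 bp of USP47 on the opposite strand, and USP47 stood at 6.52 RPKM, so the level of DKK3 is uncertain if reads were counted without strand. DKK2 and DKK4 were at the floor. The summed level of the 9 inhibitors was 109 RPKM, against 170 RPKM for the 10 Frizzled genes and 13.3 RPKM for the 19 ligands, so that the Frizzled sum was 12.8 times the ligand sum. The ligand sum is 11.7 RPKM with floor values taken as 0 and 19.7 with floor values taken as 0.5. Under these settings the inhibitor sum was 5.63 to 9.32 times the ligand sum, and the Frizzled sum 8.65 to 14.5 times.

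DKK1 is itself a textbook target of beta-catenin, and its upstream sequence is shown because it alone, of 40 members with an entry in the RefSeq promoter table, holds the core TCF/LEF motif CTTTGA on either strand in the 250 bases before its start. It holds 2 copies, starting 149 and 95 bases before the start. Of protein-coding genes 9.52% held 1 copy or more and 0.701% held 2 or more in the same window, against 2.5% of the 40 members for each. The members AXIN2, LGR5, NOTUM and ZNRF3 had no entry and could not be searched. The bases are chr10:52314031-52314280, plus strand, of GRCh38.p14, with the motif in capitals (TCAAAG is CTTTGA read on the other strand).
DKK1: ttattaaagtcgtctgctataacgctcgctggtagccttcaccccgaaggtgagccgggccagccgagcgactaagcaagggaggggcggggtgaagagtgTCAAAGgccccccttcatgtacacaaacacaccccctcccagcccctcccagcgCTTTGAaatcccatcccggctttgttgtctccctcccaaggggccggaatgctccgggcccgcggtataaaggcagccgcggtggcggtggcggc
A match describes these letters and is not a measured binding site.

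**Figure D2:**
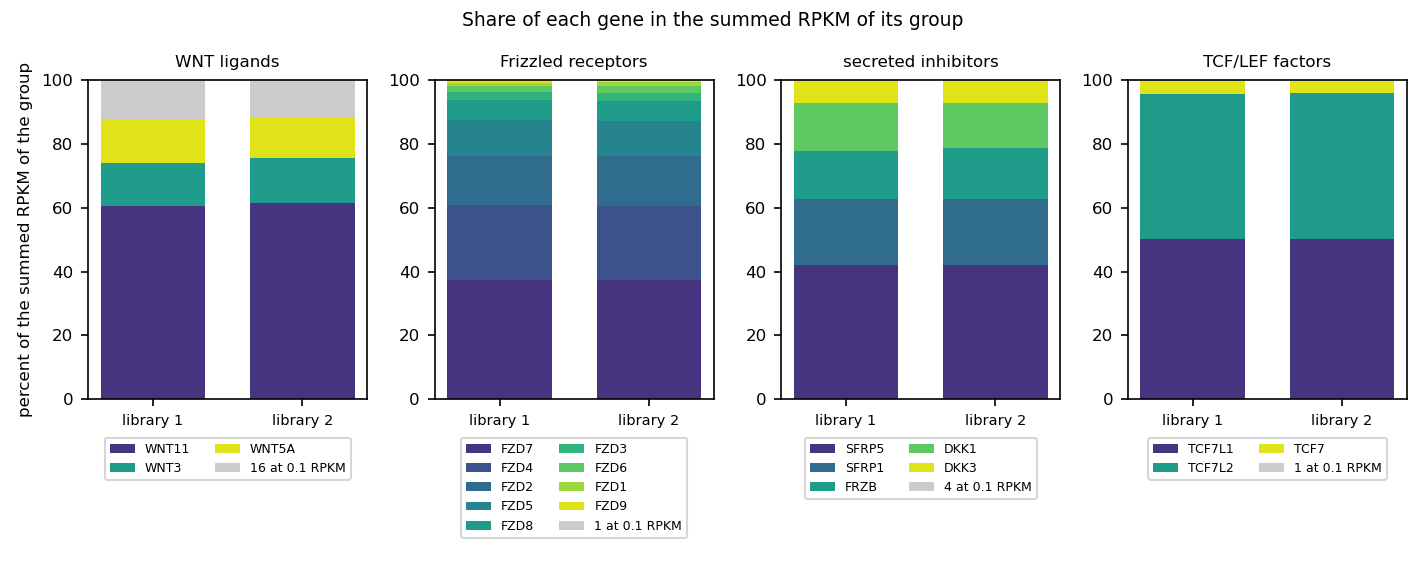
Share of each gene in the summed RPKM of its group, in percent, for library 1 and library 2, with all genes that are not detected in grey. WNT11 holds 60.9% of the ligand sum, FZD7 37.3% of the Frizzled sum, SFRP5 42.1% of the inhibitor sum, and TCF7L1 and TCF7L2 together 95.8% of the TCF/LEF sum.

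Beta-catenin itself, CTNNB1, was the most abundant of all 57 members. It had 68.6 RPKM in library 1 and 68.0 in library 2, above 97.9% of protein-coding genes, and its gene (ENSG00000168036.12) lies on chromosome 3 from 41236232 to 41301587 of GRCh37. Beta-catenin also joins cadherins to the cytoskeleton at cell junctions, and its transcript level does not show how much of the protein acts in the nucleus. All 4 members of the destruction complex were detected at lower levels. The kinase GSK3B had 9.71 RPKM in library 1 and 9.18 in library 2. The scaffold AXIN1 had 6.67 and 6.94 RPKM in libraries 1 and 2. AXIN2, a scaffold that is also a general feedback target of beta-catenin, had 2.62 RPKM in library 1 and 2.41 in library 2, so that AXIN1 stood 2.71 times higher. APC had 2.51 and 2.56 RPKM in libraries 1 and 2, and AXIN2 and APC could not be ordered, since they changed places. Exons of AXIN2 and APC also belong in part to 1 other annotated gene each on the same strand, which stood at 2.88 and 17.8 RPKM, so reads may have been split between them.

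The TCF/LEF factors divided into an expressed pair and a low pair. TCF7L1, known mainly as a repressor of WNT targets in the absence of beta-catenin, had 16.4 RPKM in library 1 and 16.7 in library 2. TCF7L2, the main family member of many epithelia, had 14.8 and 15.1 RPKM in libraries 1 and 2. The RPKM of TCF7L1 was 1.11 times that of TCF7L2, by nearly the same ratio in each library, and the libraries did not overlap. That spread does not cover error in the gene lengths used, so the order of these genes is uncertain. TCF7, which more often activates targets, had 1.29 RPKM in library 1 and 1.27 in library 2, 12.9 times below TCF7L1. TCF7 overlaps 210 bp of exons of SKP1, a gene on the opposite strand at 34.2 RPKM. LEF1, an activator that is itself a beta-catenin target, was at the floor, where 0.5 RPKM stood for 67.5 reads in library 1, and so was its antisense RNA LEF1-AS1.

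The sequences before the listed starts of the highest and the lowest of these factors differ in CG dinucleotides, which are given in capitals. A listed start is the farthest upstream of those in the RefSeq promoter table. It need not be the outermost or main start of the gene, and for LEF1 this was not tested. The 250 bases of TCF7L1 (chr2:85133142-85133391, plus strand, GRCh38.p14) hold 24 of them, and those of LEF1 (chr4:108166302-108166551, minus strand, GRCh38.p14) hold 8.
TCF7L1: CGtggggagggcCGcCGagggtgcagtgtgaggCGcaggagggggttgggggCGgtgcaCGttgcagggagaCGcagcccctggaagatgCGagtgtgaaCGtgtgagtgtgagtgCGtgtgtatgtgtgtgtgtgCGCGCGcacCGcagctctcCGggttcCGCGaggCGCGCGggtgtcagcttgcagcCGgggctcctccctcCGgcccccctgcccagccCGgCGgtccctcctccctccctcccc
LEF1: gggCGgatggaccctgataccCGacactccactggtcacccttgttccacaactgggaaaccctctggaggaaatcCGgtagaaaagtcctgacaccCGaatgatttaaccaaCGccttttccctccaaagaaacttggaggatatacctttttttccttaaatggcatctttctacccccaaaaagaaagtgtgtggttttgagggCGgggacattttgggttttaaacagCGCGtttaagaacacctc
TCF7L2 held 21 and TCF7 22, so a CpG-rich start did not separate TCF7 from the expressed pair.

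Across all members with an entry, CpG content was similar at either level. The 22 detected members had a median of 22.5 CG dinucleotides in the 250 bases, and the 17 members at the floor had 24.0. For protein-coding genes with an entry the medians were 21 for 9313 detected genes and 5 for 4765 genes at the floor. The 14 ligands at the floor had a median of 29.0, led by WNT9A with 44 and WNT4 with 40. At least 10 CG dinucleotides were found in 12 of these 14 ligands, against 36.7% of all protein-coding genes at the floor. WNT8A with 4 and WNT8B with 3 were the 2 exceptions. RNF43, with 4, was the only detected member under 10.

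**Figure D3:**
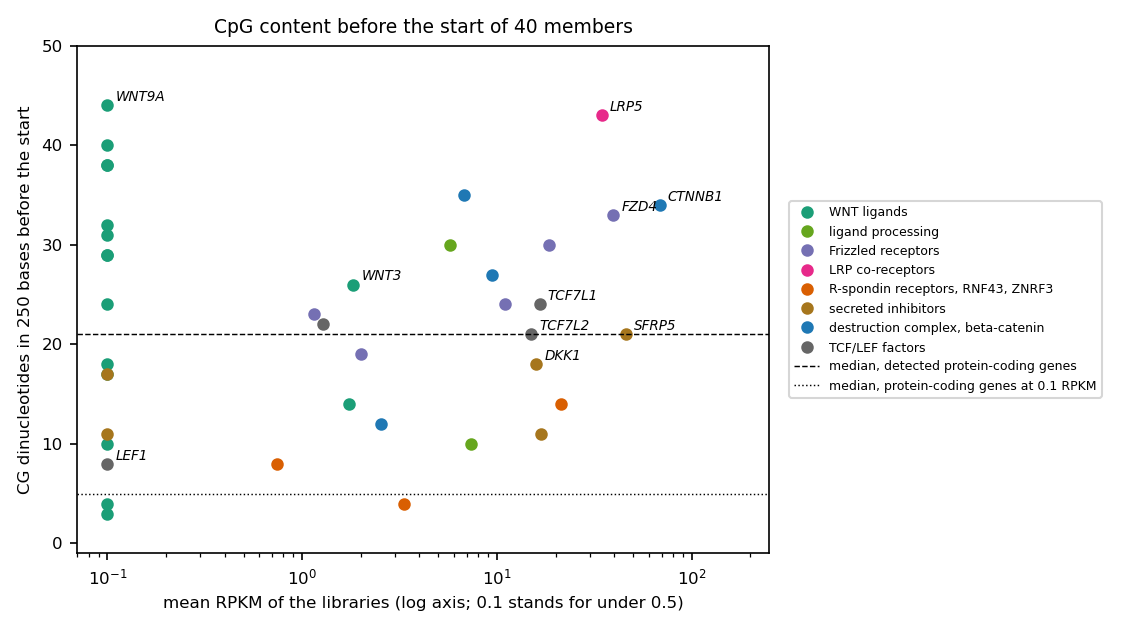
CG dinucleotides in the 250 bases before the RefSeq start against the mean RPKM of the libraries (log axis) for 40 members, coloured by role; lines mark the medians of detected protein-coding genes (21, dashed) and of those at the floor (5, dotted). Most ligands at the floor lie above both lines.

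Other genes of the pathway were taken from lists chosen by function. Cytoplasmic transducers were detected in 22 of 24 cases (91.7%, against 59.8% of protein-coding genes). They were led by the Dishevelled gene DVL3 at 29.4 RPKM, the kinases CSNK2A1 at 29.3, CSNK1E at 28.8 and CSNK1G2 at 23.7, and FRAT2, which inhibits GSK3, at 19.5 RPKM. The nuclear partners and repressors were detected in 17 of 18 cases (94.4%). The short Groucho-related protein TLE5 led with 77.7 RPKM, followed by HDAC1 at 34.5, the corepressor TLE2 at 32.3, EP300 at 21.3 and CTBP1 at 20.7 RPKM. All 13 further WNT receptors and planar polarity genes were detected. VANGL2 had 21.9 RPKM, PTK7 12.3, RYK 9.82, and the WNT5A receptors ROR1 and ROR2 7.52 and 6.72 RPKM. Of 14 other secreted or surface antagonists 8 were detected (57.1%), a share near the background, with IGFBP4 highest at 50.1 RPKM and TMEM88, APCDD1, TPBG and TRABD2B between 2.55 and 6.64 RPKM. IGFBP4 also binds insulin-like growth factors.

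Genes known as WNT targets were mixed. Of 22 general targets and feedback genes 14 were detected (63.6%), near the background of 59.8%. High among them were ID2 at 192 and BAMBI at 102 RPKM, both also BMP targets, CCND1 at 28.8 and BIRC5 at 15.2 RPKM. CD44, CDX1, CDX4, TBXT, MSX1, ASCL2 and TWIST1 were at the floor (chosen after their values were seen). The members AXIN2, RNF43, ZNRF3, LGR5, NOTUM, LEF1, TCF7 and DKK1 are feedback genes outside that list. These members ranged from the floor to the 16.3 and 15.5 RPKM of DKK1. Of 15 genes that WNT maintains around the central vein of the adult liver, 8 were detected (53.3%). GLUL, the glutamine synthetase, had 71.0 RPKM in library 1 and 70.7 in library 2, and TBX3, OAT, CYP27A1 and RHBG followed at 34.3, 15.9, 11.4 and 4.95 RPKM. CYP2E1, CYP1A2, SLC1A2, LECT2 and REG3A were at the floor (also chosen after their values were seen). Of 10 genes of the opposite, periportal zone 3 were detected, ASS1 at 11.8, CPS1 at 4.06 and ARG1 at 2.56 RPKM. Several of these genes are not controlled by WNT alone, and no WNT manipulation was measured.

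**Figure D4:**
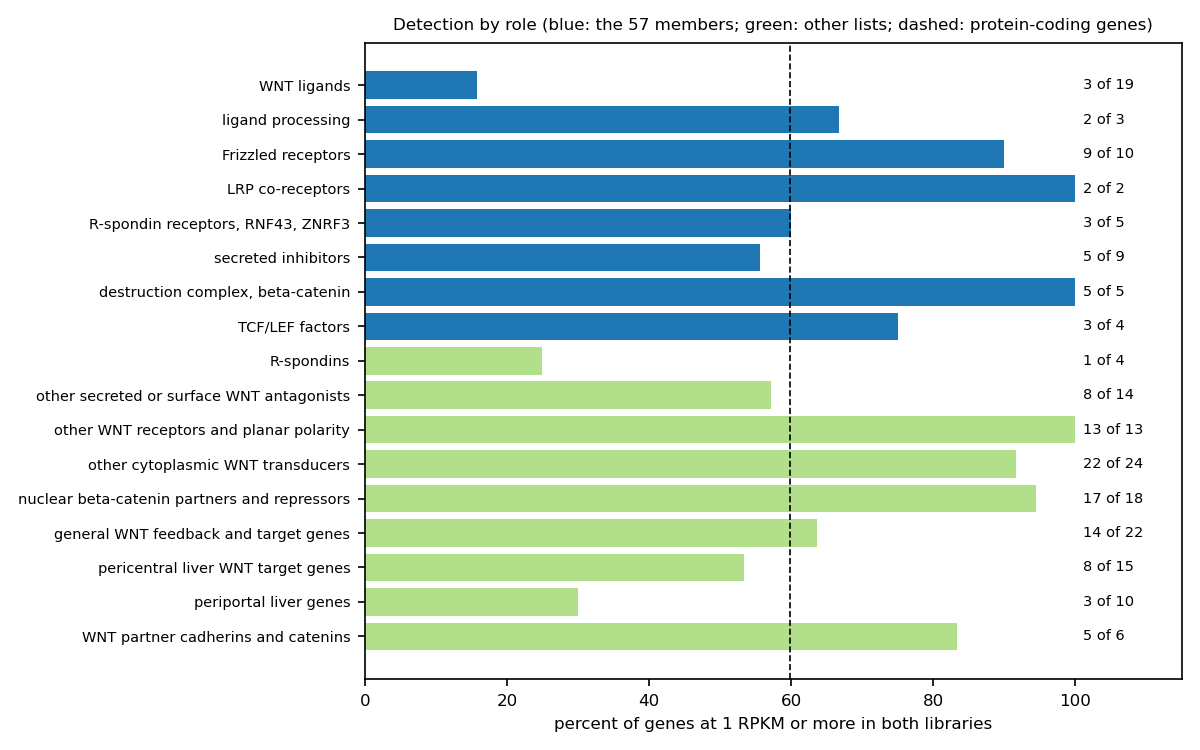
Percent of genes at 1 RPKM or more in both libraries for each role of the 57 members (blue) and each further list (green), with counts at the right; the dashed line is the 59.8% of protein-coding genes. Ligands (3 of 19) and R-spondins (1 of 4) lie lowest, and co-receptors, destruction complex and further receptors are complete.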

How the data were processed

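Strand-specific poly(A) RNA sequencing was done on 2 libraries of 1 group. The authors deposited 1 RPKM value per gene and library, normalized to length and depth. Per the submitters' processing notes FastQC 0.10.1, STAR 2.3.0e and Cufflinks 2.2.0 were used, and the series description names Sailfish and hg19; the sources used here do not say which tool gave the values, nor the annotation release or strand setting. No value lay between 0.1 and 0.5, and 39548 and 39542 identifiers held 0.1 in libraries 1 and 2.

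Identifiers were joined without version to GENCODE release 44 on GRCh37 (the build also called hg19); 54428 (95.2%) matched. The background was 19344 protein-coding symbols, 1 value each. Levels are means of the libraries. With 1 group no test was made, and no p-value is given. Depth was read from single-exon genes: under 500 reads, 83.0% (library 1) and 82.7% (library 2) fell within 0.02 of a whole read. The check of the libraries used genes with a mean of 50 reads or more and was tested on simulated data. Reads of single genes use annotated exon lengths and are approximate; PCR duplicates mean that counting error is a lower limit. Upstream sequences are from RefSeq (GRCh38.p14), at the start farthest upstream among the entries of a gene in the promoter table, which may lie inside the gene. They matched 40 of 57 members; FZD2, FZD3, FZD6, FZD7, FZD10, WNT7B, WNT10B, WNT11, LRP6, LGR5, ZNRF3, DKK2, DKK3, DKK4, SFRP1, AXIN2 and NOTUM had none.

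The members and lists were chosen with earlier results of these data known. Every member may be named, of each further list the 5 highest (all in lists of up to 6 genes) and of marker lists the 3 highest and those at the floor. Any other gene named, such as LUM, PDGFRB, ACTA2, LRP5L, LEF1-AS1 and the genes whose exons overlap members, was chosen after its values were seen. PECAM1 was not matched. A gene that this rule names is not reported here by name, while the counts of its list include it. Alternatives were limits of 0.5 and 5 RPKM, each library alone, floor values set to 0 or 0.5, pseudocounts, and summed identifiers. Python 3.11.15, pandas 2.3.3, numpy 2.4.6 and scipy 1.17.1 were used.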

Additional observations from a re-analysis of the deposited data

How the results depend on the processing

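Levels could not be tested between groups, and each is limited by the floor: a gene under 0.5 RPKM has no value. At a limit of 0.5 RPKM 34 members were detected (against 65.1% of protein-coding genes). At a limit of 5 RPKM, 21 members were detected (against 35.4% of protein-coding genes), 1 of them a ligand, 5 Frizzled genes, 1 of the R-spondin axis and 3 of the destruction complex with beta-catenin and 2 TCF/LEF factors. At that limit 18 cytoplasmic transducers, 15 nuclear partners, 2 of the other antagonists, 6 of the further receptors and polarity genes, 8 general targets, 4 pericentral and 1 periportal gene were detected. With floor genes left out, the median of members was 7.76 RPKM, against 5.87 for protein-coding genes, so the order of the medians turned round. The mean of log2(RPKM + 1) of members minus protein-coding genes was 0.0053, and it was -0.097 with a pseudocount of 0.1 and -0.14 with 0.01, so it has no stable sign. With floor values set to 0 the shares of WNT11, SFRP5 and TCF7L1 were 69.3%, 42.3% and 50.5%, and with 0.5 those of WNT11, FZD7, SFRP5 and TCF7L1 were 41.1%, 37.3%, 41.5% and 49.7%. Each library alone gave 32 detected members, against 60.3% (library 1) and 60.4% (library 2) of protein-coding genes. The medians of members were then 1.79 and 1.92 RPKM. The shares were 60.5% to 61.4% for WNT11, 37.3% to 37.4% for FZD7, 42.1% to 42.2% for SFRP5 and 50.3% for TCF7L1. No paired analysis was possible because there is 1 group.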

Other observations

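Of 6 cadherins and catenins that meet beta-catenin at cell junctions, 5 were detected (83.3%, against 59.8% of protein-coding genes). CDH2, or N-cadherin, had 71.2 RPKM, JUP (gamma-catenin) 62.6, CDH1 (E-cadherin) 51.9, CTNNA1 (alpha-catenin) 51.0 and CTNND1 (p120 catenin) 36.8 RPKM, beside CTNNB1 at 68.3. The neural alpha-catenin CTNNA2 was at the floor. Each value is the mean of 2 libraries.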
